A study of Homo sapiens with 6 samples.

Results

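The genes examined here are the matrix metalloproteinase (MMP) genes that lie side by side on chromosome 11, at band 11q22, in MDA-MB-231 cells that overexpressed ADAMTS1, a secreted metalloprotease of the ADAMTS family, and in vector cells. The members were taken by gene symbol: MMP1, MMP3, MMP7, MMP8, MMP10, MMP12, MMP13, MMP20 and MMP27, which are 9 genes within 435 kb (GRCh38, the build also called hg38, chromosome 11, 102520508 to 102955734, all on the minus strand). Of these, 5 were found among the 31835 genes of the table used: MMP1, MMP3, MMP8, MMP10 and MMP13. MMP7, MMP12, MMP20 and MMP27 had no row in that table and were not analysed here. The table held 0 rows at 0 in all libraries, and whether these genes were at 0 is not known. Where a symbol repeats, the row was to be chosen by its mean FPKM over all libraries, the one measured value in the rule. No member repeats, so it decided nothing, but the cluster was proposed with the level of MMP1 in these libraries already known. The values of the members are therefore given as a description, and a p-value beside them is no independent support.

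MDA-MB-231 is a human triple-negative breast cancer line with mesenchymal features. Bulk RNA of 3 libraries of cells that overexpressed ADAMTS1 and of 3 libraries of cells with the vector was sequenced. The labels name no separate cultures for the replicates, so a p-value here reflects only how much these libraries vary, and that variation may be technical. The form of ADAMTS1 in the construct, whether the cells were a pool or 1 clone, and the time of harvest are not stated in the labels. ADAMTS1 itself was at 499, 462 and 501 FPKM in the ADAMTS1 libraries and at 6.56, 6.72 and 6.99 FPKM in the vector libraries, so each library matched its label. FPKM is the fragment number of a gene corrected for transcript length and sequencing depth, so levels of different genes can be compared.

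MMPs are zinc-dependent proteases made as inactive zymogens, in which a cysteine of the propeptide blocks the zinc until the propeptide is removed. The genes on 11q22 arose by duplication and encode collagenases that cut fibrillar collagen (MMP1, MMP8, MMP13), stromelysins with broad matrix substrates (MMP3, MMP10), matrilysin (MMP7), the macrophage elastase (MMP12), the tooth enamel protease (MMP20) and MMP27. MMP1 and MMP3 are classical targets of AP-1 and ETS transcription factors, and MMP1 has been linked to spread of breast cancer cells. MMP3 protein can cut and fully activate the MMP1 zymogen.

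The catalytic site shows how near and how far the members are. The stretches below encode the zinc-binding site in the 5 members with values, as read from GENCODE 29 transcripts, and are shown because all members share this catalytic core while its DNA differs from gene to gene, which is what lets reads be assigned to one member. Each is 69 bases, 5′ to 3′ on the coding strand, and the capitals mark the codons of the 3 histidines that hold the zinc.
MMP1: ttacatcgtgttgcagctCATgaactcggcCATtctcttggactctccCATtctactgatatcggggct
MMP3: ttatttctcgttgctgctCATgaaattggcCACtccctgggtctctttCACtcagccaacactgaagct
MMP10: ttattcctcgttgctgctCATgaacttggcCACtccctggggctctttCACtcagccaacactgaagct
MMP8: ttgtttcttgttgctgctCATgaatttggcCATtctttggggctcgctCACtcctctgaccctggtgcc
MMP13: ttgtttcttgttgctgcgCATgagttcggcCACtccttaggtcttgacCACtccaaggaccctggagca

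In all 5 genes this stretch lies within exon 5 of 10. It is at chr11:102795531-102795599 in MMP1, chr11:102840517-102840585 in MMP3, chr11:102776700-102776768 in MMP10, chr11:102718499-102718567 in MMP8 and chr11:102952097-102952165 in MMP13 (GRCh38, minus strand). From MMP1, the stretch differs at 23 bases in MMP3, 23 in MMP10, 21 in MMP8 and 26 in MMP13.

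Identity of the coding sequences was taken over their aligned bases, with gaps left out. By this measure MMP1 was 66.2% identical to MMP3, 66.1% to MMP10, 68.2% to MMP8 and 61.1% to MMP13. The closest pair in the cluster was MMP3 with MMP10, at 85.2%. Of the windows of 50 bases in the MMP3 transcript, 2.999% also occurred in another gene, which was MMP10; for windows of 100 bases this was 0%. For MMP1 the share was 2.92%, all of it in WTAPP1, a pseudogene transcribed from the opposite strand that spans MMP10 and MMP1 and reaches into MMP3. MMP8 and MMP13 shared 0% of their windows of 50 bases with any other gene. These windows came from the longest protein-coding transcript of each gene, which has 1970 bases for MMP1. By the fragment estimate given below, the FPKM of MMP1 imply a length of 2738 bases, so part of that length was not checked. Where reads could be exchanged between members, in the windows checked, this concerns MMP3 and MMP10 over a small part of their length.

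The deposited FPKM of low genes moved in steps of whole fragments, so the number of fragments behind a value could be read back. By this estimate a library held 16635000 to 22767000 fragments in the ADAMTS1 group and 15937000 to 20075000 in the vector group. Among values of 2 to 50 fragments in genes with 1 annotated transcript, 92.7% of 29192 came out whole within 0.05 fragments, where that tolerance alone gives 10%. The 1109 genes that set the depth were picked for whole steps and were not left out, so part of this share follows from the choice. The fragment numbers of MMP1 lie above the range checked; its 6 values came out within 0.00176 of whole numbers. Intervals and limits from fragment numbers cover counting error only.

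MMP1, the interstitial collagenase that starts the breakdown of fibrillar collagen, was the most abundant member and was higher with ADAMTS1. Its level was 14.7, 14.3 and 13.4 FPKM in the ADAMTS1 libraries, against 9.74, 9.001 and 9.50 FPKM in the vector libraries. All 3 ADAMTS1 values lay above all 3 vector values, and the gap between the groups was wider than either group. The mean was 14.1 ± 0.658 FPKM with ADAMTS1 and 9.41 ± 0.377 FPKM with the vector (SD, n = 3 each), a ratio of 1.501. The gene is ENSG00000196611, at 102789401 to 102798160 of chromosome 11 in the deposited table.

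Behind these levels stood 904, 650 and 836 fragments of MMP1 in the ADAMTS1 libraries and 425, 461 and 522 in the vector libraries. The spread between libraries of a group was close to what counting alone gives: the coefficient of variation of the FPKM was 4.66% with ADAMTS1 and 4.001% with the vector, where the fragment numbers give 3.58% for ADAMTS1 and 4.63% for the vector. With such depth, MMP1 is the member whose level is best determined. In bulk RNA, more RNA per cell and more cells with the transcript cannot be told apart.

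On the log2(FPKM + 1) scale the change of MMP1 was 0.54 ± 0.046 (SE; 95% interval 0.43 to 0.65), fitted across 11897 genes with a mean of at least 1 FPKM. Its adjusted p was 0.0246 (limma, Benjamini-Hochberg over all genes tested). At that threshold of 0.05, 0.0588% of all tested genes were called higher with ADAMTS1, and 0.0672% in either direction, or 7 genes higher and 1 lower. With a mean of at least 5 FPKM, the calls were 17 higher and 14 lower. Of the 2 members that could be tested, 1 was called. MMP1 ranked 48 of the tested genes by size of rise and 3 by p-value, after ADAMTS1 and LCP1. The call depended on the fit: the limma adjusted p was 0.159 with no filter on low values and 0.0841 without the mean-variance trend. It also depended on the libraries: the adjusted p was 0.0884 without ADAMTS1 replicate 1, 0.159 without ADAMTS1 replicate 2, 0.115 without vector replicate 1, 0.0891 without vector replicate 2 and 0.148 without vector replicate 3, and 0.0341 without ADAMTS1 replicate 3. The change itself stayed between 0.51 and 0.57 in these 6 fits.

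MMP3, stromelysin, which digests proteoglycans, fibronectin and laminin and activates other MMP zymogens, was much less abundant than MMP1. It was at 1.56, 1.72 and 1.16 FPKM in the ADAMTS1 libraries and at 0.677, 1.04 and 0.940 FPKM in the vector libraries. The 2 groups did not overlap, but ADAMTS1 replicate 3 came close to vector replicate 2. The corresponding fragment numbers were 65, 53 and 49 with ADAMTS1 and 20, 36 and 35 with the vector. The nearest libraries, with 49 and 36 fragments, had exact Poisson 95% intervals of 36.3 to 64.8 and 25.2 to 49.8 fragments before scaling to depth, which overlap.

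The mean level of MMP3 was 1.48 ± 0.288 FPKM with ADAMTS1 and 0.885 ± 0.187 FPKM with the vector (SD, n = 3 each), a ratio of 1.67. Its change was 0.39 ± 0.124 on the log2(FPKM + 1) scale (95% interval 0.10 to 0.68), with limma adjusted p = 0.303, so it did not pass the threshold over all genes. The added 1 reduces the change of so low a gene; with 0.1 added it was 0.68 (limma adjusted p = 0.319). The coefficient of variation was 19.4% with ADAMTS1 and 21.1% with the vector, where counting alone gives 13.5% for ADAMTS1 and 18.8% for the vector. Groups that do not overlap, with ADAMTS1 higher, were found for 8.15% of tested genes, and both tested members were among them.

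**Figure D1:**
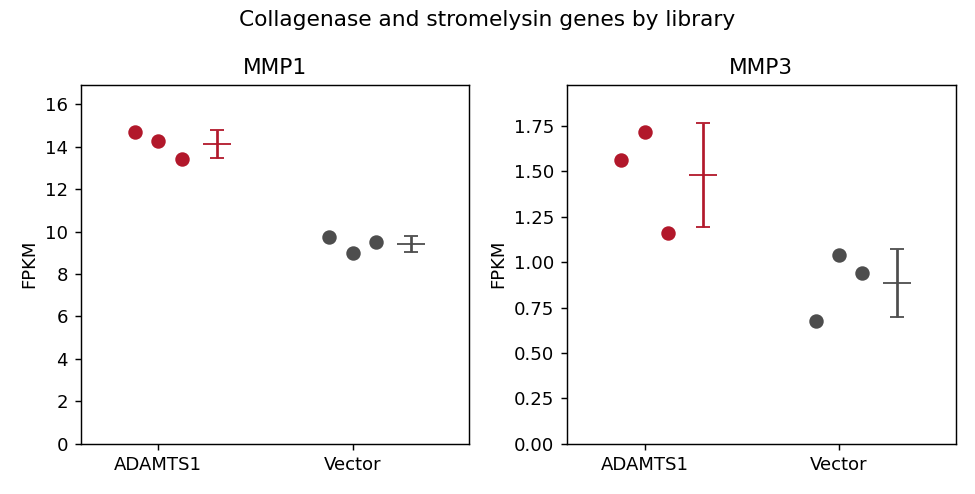
FPKM of MMP1 (left) and MMP3 (right) in each library; points are libraries, and the line with bars beside them is the mean ± SD of 3 libraries. MMP1 lies between 13.4 and 14.7 FPKM with ADAMTS1 and between 9.001 and 9.74 FPKM with the vector, while the lowest ADAMTS1 value of MMP3, 1.16 FPKM, is close to the highest vector value, 1.04 FPKM.

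The balance of MMP3 and MMP1 RNA did not separate the groups. MMP3 was 10.6%, 12.04% and 8.66% of the MMP1 level in the ADAMTS1 libraries and 6.95%, 11.5% and 9.90% in the vector libraries. These ranges overlap. MMP1 made up 89.9%, 89.3% and 91.6% of the summed FPKM of the 5 listed members with ADAMTS1, and 91.7%, 88.8% and 90.6% with the vector, so most of the RNA of the cluster was MMP1 RNA in every library. The summed level was 14.6 to 16.4 FPKM with ADAMTS1 and 10.1 to 10.6 FPKM with the vector.

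The other collagenases of the cluster were hardly expressed. MMP13, which cuts the collagen of cartilage best, was at 0.0944, 0 and 0.0620 FPKM in the ADAMTS1 libraries and at 0.155, 0.0189 and 0 FPKM in the vector libraries. These values are 6, 0 and 4 fragments with ADAMTS1 and 7, 1 and 0 with the vector, or 10 against 8 in all, and the groups overlap. MMP8, the collagenase stored in neutrophil granules, had 0, 0 and 0 fragments with ADAMTS1 and 3, 1 and 1 with the vector. The groups do not overlap, by 1 fragment. Groups that do not overlap were found in either direction for 18.8% of tested genes, which all had a mean of at least 1 FPKM. MMP8 lies below that mean, and the share among genes so low was not computed. The vector values of MMP8 were 0.0548, 0.0156 and 0.0145 FPKM. A limit of 3 fragments for a count of 0 is 0.0383 to 0.0525 FPKM for MMP8 in the ADAMTS1 libraries, each taken alone. The exact Poisson 95% interval of a count of 0 reaches 3.69 fragments. The vector mean of 0.0283 FPKM lies below the limit of 3 fragments, while vector replicate 1, at 0.0548 FPKM, lies above it. The ADAMTS1 libraries were not pooled for a limit, and no fold is given.

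MMP10, the second stromelysin and the nearest relative of MMP3, had 0 fragments in each ADAMTS1 library and 0, 2 and 1 in the vector libraries (0, 0.0608 and 0.0283 FPKM). The groups overlap at 0. The limit of 3 fragments is 0.0749 to 0.103 FPKM for MMP10 in the ADAMTS1 libraries. A difference in MMP8, MMP10 or MMP13 could not be judged from so few fragments. These 3 members had a mean below 1 FPKM and did not enter the fit: MMP3, at 1.18 FPKM over the 6 libraries, was the member just inside that limit, and MMP13, at 0.0551 FPKM, the nearest outside it.

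**Figure D2:**
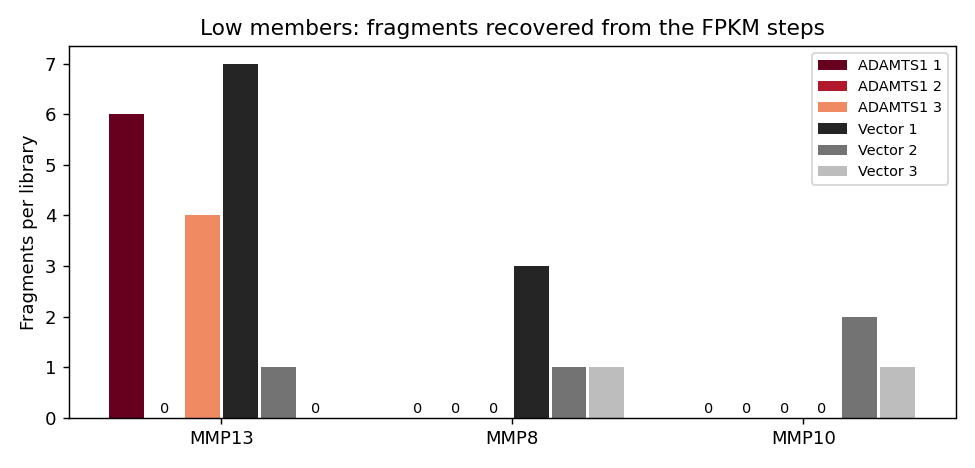
Fragments per library for MMP13, MMP8 and MMP10, with the 3 ADAMTS1 libraries to the left of the 3 vector libraries for each gene and 0 written where a library had none. No bar is higher than 7 fragments, and MMP8 and MMP10 have 0 in the 3 ADAMTS1 libraries and at most 3 in a vector library.

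Set beside the rest of the MMP family, the cluster held 1 abundant and 1 low gene. Of 17 MMP genes listed, MMP14, the membrane-anchored collagenase, had the highest level, at 124 FPKM over the 6 libraries, and MMP1 was second at 11.8 FPKM. MMP15 and MMP9 followed at 1.90 and 1.78 FPKM, then MMP3 at 1.18 FPKM and MMP19 at 0.529 FPKM. MMP13, MMP10 and MMP8 stood at places 13, 15 and 16. The levels of MMP15 and MMP9 over the 6 libraries do not differ from each other beyond the spread between libraries. The SD within a group was 0.172 to 0.428 FPKM for these genes.

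The 6 lists of other genes of the MMP system hold 57 genes and were chosen with earlier results of these data known. Over all tested genes 0.0672% were called in either direction, so 0 calls are the usual outcome for lists this small. Among MMPs outside the cluster, 12 of 14 were listed, 3 were tested and 0 were called. MMP14 was at 124 ± 1.87 FPKM with ADAMTS1 and 124 ± 2.06 FPKM with the vector, a change of −0.0022 ± 0.024. The membrane-type gene MMP15 was at 2.09 ± 0.307 FPKM with ADAMTS1 and 1.70 ± 0.172 FPKM with the vector, a change of 0.19 ± 0.094. Its groups did not overlap, with ADAMTS1 higher, as in 8.15% of tested genes. The gelatinase gene MMP9 was at 1.58 ± 0.405 FPKM with ADAMTS1 and 1.98 ± 0.428 FPKM with the vector, a change of −0.21 ± 0.149. The median change of the list was −0.0022, against −0.0078 over all genes tested.

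Of MMP inhibitors 3 of 6 were tested and 0 were called, against 0.0672% of all tested genes in either direction. The median change was 0.040. TIMP1, a secreted inhibitor that binds active MMPs, was at 71.4 ± 1.91 FPKM with ADAMTS1 and 70.1 ± 3.34 FPKM with the vector. TIMP2, which inhibits MMPs and takes part in activation of MMP2 at the cell surface, was at 61.3 ± 0.518 FPKM with ADAMTS1 and 58.2 ± 1.53 FPKM with the vector. Both inhibitors were more abundant than MMP1 and MMP3 in all 6 libraries.

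Of proteases that activate MMP zymogens, 3 of 6 were tested, and 1 was called higher and 0 lower, with a median change of 0.16. Over all tested genes 0.0588% were called higher with ADAMTS1. The called gene was PLAU, which encodes urokinase, the activator of plasminogen. PLAU was at 120.0 ± 0.942 FPKM with ADAMTS1 and 102 ± 2.15 FPKM with the vector, a change of 0.24 ± 0.024 (limma adjusted p = 0.0417). The adjusted p of PLAU was 0.0913 to 0.211 with each of the 6 libraries left out in turn, with no call in any of them.

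Of 15 transcription factors known to act on MMP promoters, 13 were tested and 0 were called. With 0.0672% of all tested genes called in either direction, 0 of 13 is near that share. The median change was 0.015, with changes from −0.15 to 0.053. FOSL1, the AP-1 factor with the highest level here, was at 305 ± 1.76 FPKM with ADAMTS1 and 315 ± 10.1 FPKM with the vector. JUN, its usual partner, was at 98.3 ± 2.92 FPKM with ADAMTS1 and 99.9 ± 1.10 FPKM with the vector. Transcript levels do not measure the activity of these factors.

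Among inducers, receptors and docking partners of MMPs, 8 of 9 were tested and 0 were called, with a median change of 0.022. Of all tested genes, 0.0672% were called in either direction. BSG, the membrane protein that induces MMPs in neighbouring cells, was at 163 ± 3.67 FPKM with ADAMTS1 and 165 ± 3.98 FPKM with the vector, and CD44, a hyaluronan receptor that docks MMPs, at 83.6 ± 0.186 FPKM with ADAMTS1 and 80.5 ± 2.77 FPKM with the vector. Of 7 matrix substrates 3 were tested and 0 were called, with a median of −0.098. The laminin chain gene LAMA5 was at 37.3 ± 2.12 FPKM with ADAMTS1 and 46.2 ± 1.55 FPKM with the vector (limma adjusted p = 0.103). FN1, which encodes fibronectin, was at 5.64 ± 0.533 FPKM with ADAMTS1 and 5.31 ± 0.222 FPKM with the vector. Over the lists, the groups did not overlap for 1 of 3 MMPs outside the cluster, 1 of 3 inhibitors and 2 of 3 activators. The same held for 2 of 13 promoter regulators, 4 of 8 inducers, receptors and docking partners and 1 of 3 substrates. Over all tested genes the share in either direction was 18.8%.

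**Figure D3:**
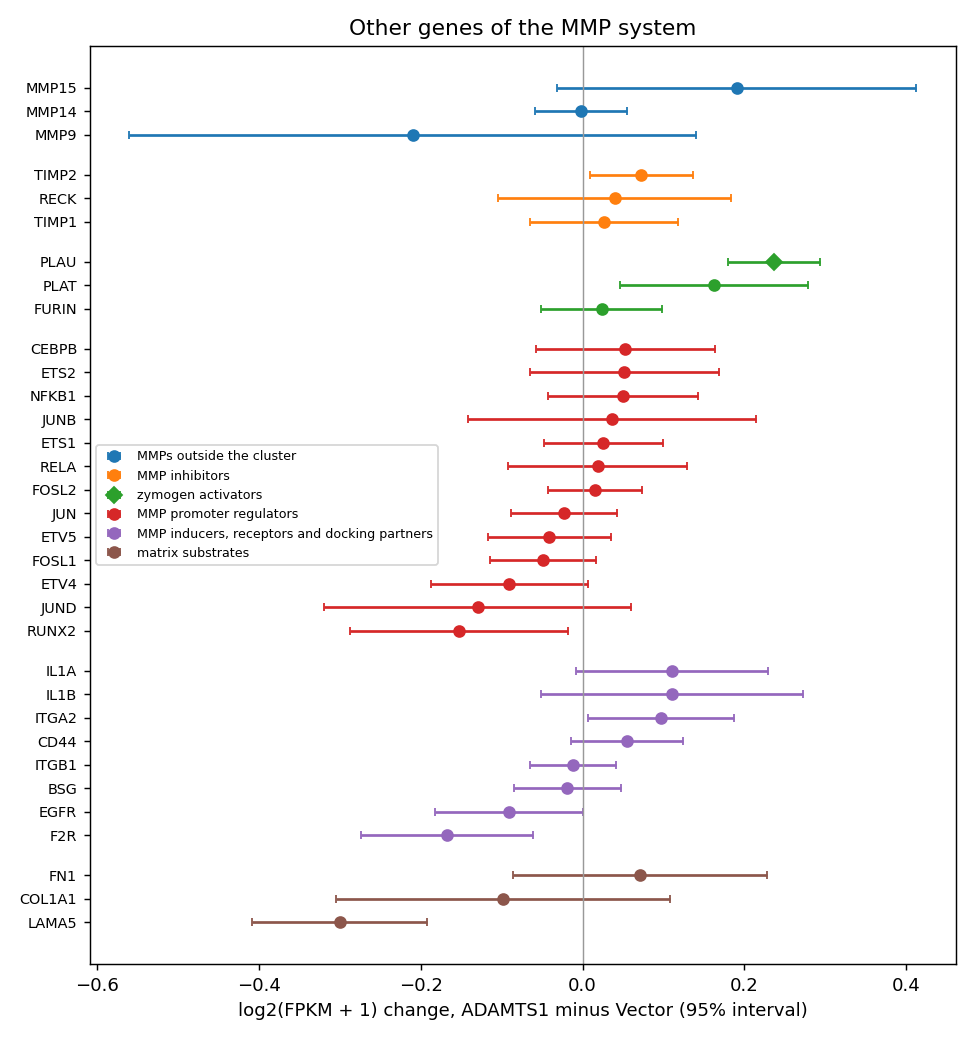
Change on the log2(FPKM + 1) scale, ADAMTS1 minus vector, for each tested gene of the 6 lists, with its 95% interval; the diamond marks the gene called over all genes tested. PLAU, at 0.24, is the single diamond, and the promoter regulators lie between −0.15 and 0.053.

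Genes next to the cluster were compared to see whether the region as a whole differed. Within 1 Mb of the cluster 22 other genes were listed and 7 were tested. Of these 7, 0 were called by limma, and 0 had an unadjusted p under 0.05. Over all 11897 tested genes, 0.0672% were called in either direction, and 1452 had an unadjusted limma p under 0.05. At these shares, counts from 7 genes cannot show whether the region differs from other genes. Their changes ran from −0.024 to 0.14, with a median of −0.0048, and each 95% interval included 0. TMEM123, which encodes a membrane mucin and is the nearest tested gene on the MMP7 side, was at 122 ± 2.87 FPKM with ADAMTS1 and 123 ± 0.377 FPKM with the vector. DCUN1D5, a neddylation gene and the nearest on the MMP13 side, was at 5.86 ± 0.198 FPKM with ADAMTS1 and 5.89 ± 0.137 FPKM with the vector.

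Other neighbours are the Hippo pathway effector YAP1 and the apoptosis inhibitors BIRC2 and BIRC3. YAP1 was at 38.2 ± 0.508 FPKM with ADAMTS1 and 38.8 ± 0.172 FPKM with the vector. BIRC3 was at 10.6 ± 0.450 FPKM with ADAMTS1 and 10.7 ± 0.764 FPKM with the vector. BIRC2 was at 42.8 ± 0.666 FPKM with ADAMTS1 and 41.1 ± 0.484 FPKM with the vector (limma adjusted p = 0.432). It was the 1 tested neighbour whose groups did not overlap, which held in either direction for 18.8% of all tested genes. The 95% interval of MMP1, 0.43 to 0.65, lay above those of all tested neighbours except ENSG00000277459, whose interval reached 0.46. That gene was at 4.92 ± 0.769 FPKM with ADAMTS1 and 4.40 ± 0.911 FPKM with the vector. The interval of MMP3, 0.10 to 0.68, overlapped those of BIRC2 (upper bound 0.115), BIRC3 (0.124), DYNC2H1 (0.226), a dynein heavy chain gene, and ENSG00000277459. The difference between a member and a neighbour was not itself tested.

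WTAPP1, the pseudogene that overlaps MMP1 on the other strand, had 2 fragments in the ADAMTS1 libraries together and 4 in the vector libraries. The strand setting is not stated in the labels, so reads of MMP1 and WTAPP1 over shared bases cannot be told apart. The fragments given to WTAPP1 were far fewer than the 425 or more given to MMP1 in each library.

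**Figure D4:**
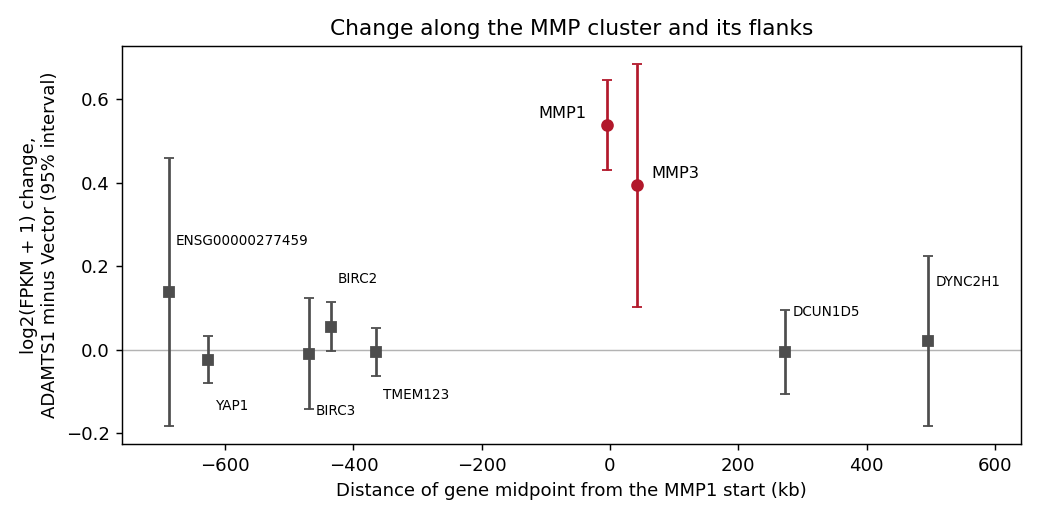
Change on the log2(FPKM + 1) scale, ADAMTS1 minus vector, with its 95% interval, for MMP1, MMP3 (circles) and the 7 tested neighbours (squares) against the distance of the gene's midpoint from the start of MMP1. MMP1 at 0.54 and MMP3 at 0.39 lie between flanking genes whose changes are −0.024 to 0.14, and the interval of MMP3 overlaps those of 4 of the 7.

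The tested genes whose level followed MMP1 most closely over the 6 libraries were LCP1 (Pearson r = 0.993), UBE2F (0.992), TSTD2 (0.991), EIF5 (0.990) and SERPINE2 (0.990). This is a description over 6 libraries that fall into 2 groups, so any gene that differs between the groups ranks high; 66 tested genes had r over 0.95. LCP1, which encodes the actin-bundling L-plastin, was at 15.2 ± 0.528 FPKM with ADAMTS1 and 10.8 ± 0.173 FPKM with the vector. SERPINE2, a secreted inhibitor of urokinase and thrombin, was at 4.52 ± 0.135 FPKM with ADAMTS1 and 3.99 ± 0.0415 FPKM with the vector. MMP3 had r = 0.833 with MMP1.

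The libraries held the markers of the labelled line. VIM, CD44, AXL and EGFR summed to 708 to 721 FPKM with ADAMTS1 and 695 to 729 FPKM with the vector, while ESR1, PGR and CDH1 together were at most 0.210 FPKM with ADAMTS1 and 0.165 FPKM with the vector. Macrophages and neutrophils are the usual source of MMP12 and MMP8. Of 6 of their markers 4 were listed, and these summed to 0.219 to 0.708 FPKM with ADAMTS1 and 0.404 to 0.646 FPKM with the vector. Fibroblasts can express MMP1 and MMP3, and of 5 of their markers 4 were listed. Their sum, 1.02 to 1.33 FPKM with ADAMTS1 and 1.29 to 1.36 FPKM with the vector, was nearly all COL1A1, at a mean of 1.17 FPKM with ADAMTS1 and 1.31 FPKM with the vector. COL1A2 averaged 0.0068 FPKM with ADAMTS1 and 0.00347 FPKM with the vector. DCN averaged 0 FPKM with ADAMTS1 and 0.00162 FPKM with the vector, and PDGFRA 0 FPKM with ADAMTS1 and 0.00219 FPKM with the vector. The part of these cells in the MMP values was not tested. The 4 mitochondrially encoded genes measured as a sign of RNA quality summed to 17968 to 18970 FPKM with ADAMTS1 and 18710 to 19095 FPKM with the vector.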

How the data were processed

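MDA-MB-231 total RNA was sequenced in 3 ADAMTS1 and 3 vector libraries, grouped by the sample titles. The authors deposited FPKM per gene and library; FastQC, HISAT2 and StringTie with build hg38 are named per the submitters' processing notes, without versions or roles. The annotation, the strand setting and the RNA selection were not given in the sources used here. Of 32119 rows, 284 that repeated a symbol were left out, keeping the row with the highest mean. Genes with a mean of at least 1 FPKM (11897) were fitted with limma 3.58.1 in R 4.3.3 (eBayes with trend) on log2(FPKM + 1) with no further term, two-sided, with Benjamini-Hochberg adjustment at 0.05, with 4 residual and 3.19 prior degrees of freedom. The script was tested on simulated data for its estimates of change. The spread was shuffled over genes there, so that test does not bear on calls that rely on the trend.

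FPKM is relative to the library, so a change is relative to all other RNA. Relative depth came from the commonest ratio between FPKM of 0.02 to 0.5. Absolute depth came from 1109 genes with 1 GENCODE 29 transcript (Python 3.11.15, NumPy 2.4.6), with quartiles of 15936000 and 15938000 fragments for vector replicate 1. The depth estimate gives fragment numbers for description, and no count test was run. A member's fragments are the smallest whole numbers that match its values within 0.05 in all libraries. Coding sequences were aligned with Biopython 1.88, and plots drawn with Matplotlib 3.10.9. Gene spans of the cluster and sequences are those of GENCODE 29 (GRCh38).

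The members, the lists and the tests were chosen with earlier results of these data known. Named were all members, ADAMTS1, WTAPP1 as the gene that overlaps members, the nearest tested gene on each side, from each list those called or else the 2 with the highest mean, and the 5 genes most correlated with MMP1. MMP9, MMP19, YAP1, BIRC2, BIRC3, DYNC2H1 and ENSG00000277459 were named after their values were seen. Other listed genes enter only the counts, medians and plot. One further gene was left out of the lists and is not reported here. Alternatives were another pseudocount, other filters, 2 scalings, no trend, a replicate block and each library left out. Same-numbered libraries did not deviate together (correlations −0.0022, 0.018 and −0.093), so the numbers were not taken as pairs.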

Additional observations from a re-analysis of the deposited data

How the results depend on the processing

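The change of MMP1 kept its sign in all alternatives run (0.51 to 0.58), and that of MMP3 kept its sign and stayed uncalled in all that could be fitted (0.31 to 0.68). The MMP1 change of 0.54 lost its call with no filter on low values (limma adjusted p = 0.159), without the mean-variance trend (0.0841) and with a replicate block (0.147), and the number of cluster members called was then 0, against 1. With no filter the count of genes called was 1 and with the replicate block 1, against 8, and without trend 2; with a mean FPKM of at least 5 it was 31 (17 higher and 14 lower, against 7 and 1). The cause was not tested. With no filter 31835 genes were fitted and the prior degrees of freedom were 1.92, against 3.19 in the main fit. The block takes degrees of freedom. The part of each was not tested. Genes called in the other MMP-system lists, 1 at first, were 0 with no filter, without trend and with the replicate block, and 2 (PLAU and LAMA5) at a mean FPKM of at least 5. With each library left out in turn the count of genes called was 1 to 5, of cluster members 0 to 1, of list genes 0, the MMP1 change 0.51 to 0.57, the MMP3 change 0.31 to 0.49 and the ADAMTS1 change 5.95 to 6.01. Genes called within 1 Mb of the cluster were 0 throughout. MMP3 could not be fitted at a mean of at least 5 FPKM. No member's symbol repeats, and a fit with repeated rows summed was not run. The replicate block changed no call of ADAMTS1 (5.98). Depth limits MMP8, MMP10 and MMP13, with at most 7 fragments in a library.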
